A study of Mus musculus with 4 samples.

Results

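The carnosine and carnitine handling genes are 10 genes for peptidases, transporters and acyltransferases, chosen because whale meat extract supplies imidazole dipeptides. They were found on the arrays as the probes whose accession belongs to one of these genes. All 10 were represented, by 15 of the 41174 probes, among 16535 genes named in this way. Slc15a2, Slc6a6, Cpt1a, Cpt1c and Slc22a5 had 2 probes each, and the other 5 genes had 1.

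Total RNA of whole brain was compared on 4 Agilent 2-colour arrays of 1 slide. SAMP8, an inbred senescence-accelerated mouse known for early learning and memory deficits, received a diet with whale meat extract (WME) or a low-safflower oil control diet (LSO). SAMR1, the senescence-resistant strain bred beside it, received LSO. One pair of arrays carried SAMP8 WME and SAMP8 LSO, the other carried SAMP8 LSO and SAMR1 LSO, and the second array of each pair had the dyes exchanged. The labels give AKR/J with suspected outbreeding as the background of both strains. All mice ate chow up to 24 weeks of age and then their diet for 26 weeks, went through behavioural tests and were killed at 50 weeks. The number of mice behind an RNA and their sex are not given in the sources used here. Each group was thus 1 RNA, each comparison had 1 replicate, and no p-value can be given. Unless another basis is named, an SD after ± is over the 2 dye orientations of the same RNAs. It holds dye effects and hybridisation error and no spread between mice. The SAMP8 LSO group is on the lower side of the diet ratio and on the upper side of the strain ratio, so the ratios of both comparisons are given side by side and not set against each other.

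Carnosine is a dipeptide of beta-alanine and histidine that is abundant in skeletal muscle and is also made in brain. Dipeptidases split it, and proton-coupled peptide transporters carry it into cells. Carnitine carries long-chain fatty acids into mitochondria: an acyl group is placed on carnitine at the outer membrane, a carrier exchanges acylcarnitine for free carnitine across the inner membrane, and a second transferase returns the acyl group to coenzyme A. Neurons oxidise little fatty acid, and in brain this route is known mainly from astrocytes.

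The promoters of 4 genes are shown because Cpt1a, Slc25a20 and Slc22a5 are known in liver as targets of the fatty acid receptor PPAR alpha, and because Slc15a2 had the strain ratio furthest from 0. Each is the 250 bases before the RefSeq start on GRCm38.p6, read on the strand of the gene. Capitals mark matches on either strand to the nuclear receptor motif AGGTCA and to the GC box GGGCGG.
Slc15a2, chr16:36784963-36785212, minus strand: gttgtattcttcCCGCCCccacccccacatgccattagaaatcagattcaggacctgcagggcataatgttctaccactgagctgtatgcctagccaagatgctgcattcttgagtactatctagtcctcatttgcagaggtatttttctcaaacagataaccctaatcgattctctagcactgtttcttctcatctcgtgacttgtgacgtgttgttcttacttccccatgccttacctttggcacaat
Slc22a5, chr11:53891704-53891953, minus strand: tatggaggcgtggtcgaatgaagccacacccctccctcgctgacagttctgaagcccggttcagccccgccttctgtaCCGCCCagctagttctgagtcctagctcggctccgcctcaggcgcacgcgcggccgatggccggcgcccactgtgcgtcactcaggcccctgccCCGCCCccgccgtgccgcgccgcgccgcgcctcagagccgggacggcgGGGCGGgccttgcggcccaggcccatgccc
Cpt1a, chr19:3323051-3323300, plus strand: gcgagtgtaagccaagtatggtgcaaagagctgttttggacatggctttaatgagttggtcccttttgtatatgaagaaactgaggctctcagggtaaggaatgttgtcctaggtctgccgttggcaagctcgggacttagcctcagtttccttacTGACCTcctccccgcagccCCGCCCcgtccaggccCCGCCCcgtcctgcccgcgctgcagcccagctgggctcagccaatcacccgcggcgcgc
Slc25a20, chr9:108661886-108662135, plus strand: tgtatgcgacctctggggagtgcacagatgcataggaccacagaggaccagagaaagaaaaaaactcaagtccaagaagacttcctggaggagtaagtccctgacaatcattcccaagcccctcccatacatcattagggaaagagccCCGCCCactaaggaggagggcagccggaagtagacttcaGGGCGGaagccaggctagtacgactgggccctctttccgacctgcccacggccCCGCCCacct

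RefSeq promoters were matched for 6 of the 10 genes, Cpt1c and Cpt2 being the others. The GC box, a motif bound by Sp1-type factors, was found in 6 of these 6, against 32.7% of 32851 promoters of the same length. AGGTCA was found in 2 of 6, Cpt1a and Cpt1c, against 14.0%. The direct repeat of AGGTCA with 1 spacer base of any kind, the form that PPAR dimers are known to bind, was searched on both strands as well and was found in 0 of 6, against 0.0335%. This exact repeat stood in only 11 of the 32851 promoters, so 0 of 6 cannot tell whether PPAR binds these genes. A match describes the letters only.

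None of the 10 genes passed the threshold in either comparison. A call required each array of a pair to show 1.5-fold or more, with the same sign, and a probe counted as measured when at least 1 of the RNAs was well above background on both arrays. Between the diets 0 of 14 measured probes were called, against 0.08% of all 33738 measured probes. Between the strains 0 of 15 were called, against 1.43% of 34020. At 1.2-fold the counts were again 0 of 14 and 0 of 15, against 0.264% and 4.38% of all measured probes. With so few probes, counts of 0 are near these backgrounds. In whole brain RNA, fewer cells of a type and less RNA per cell cannot be told apart.

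The median log2 ratio of WME over LSO was −0.022 over the 14 probes (range −0.13 to 0.050), and that of SAMP8 over SAMR1 was −0.028 over the 15 probes (range −0.18 to 0.098). The medians of all measured probes were 0.0033 and −0.0031. The ratio furthest from 0 was a 1.09-fold difference between the diets and a 1.13-fold difference between the strains. These sizes depend on the processing: the dim probe of Cndp1 reached 1.72-fold between the strains with the scanner software's processed signals and 1.29-fold without an offset in the background correction. With each array centred on its median in place of loess, the diet median of the 14 probes was 0.075, beside 0.063 for all measured probes. A mean log2 ratio at least 0.1 from 0 was found for 2 of 14 probes between the diets, against 11.7% of all measured probes, and for 2 of 15 between the strains, against 29.5%. The 2 diet probes are both of Slc6a6 and thus 1 gene.

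Most of what a single array showed followed the dye. Both arrays gave the same sign for 2 of 14 probes between the diets, against 37.6% of all measured probes, and for 6 of 15 between the strains, against 50.7%. Put another way, the dye part of the ratio was larger than the RNA part for 12 of 14 and for 9 of 15 probes, against 62.4% and 49.3%. On a dye-swapped pair this holds when the arrays differ in sign, so it restates the sign counts and adds no support. A dye part that is the same on both arrays cancels in their mean, so where it is large the SD is wider than the error of that mean. Over the arrays of a pair the SD can also be narrower than that error. A closer measure was the technical contrast, the difference between the dye parts of both pairs, scaled to the variance of a mean ratio. Its SD was 0.050 over all probes measured in both comparisons, 0.038 in the brightest of 4 intensity bins and 0.062 in the dimmest. The strain SDs of the brightest Slc15a2 and Cpt1c probes, 0.0052 and 0.0059, lie below the 0.044 and 0.038 of their bins. The mean ratio lay beyond the 95th percentile of this contrast in its bin for 2 of 14 probes between the diets and for 5 of 15 between the strains. The 2 diet probes are again those of Slc6a6, so they are 1 gene, and the ratio of its dimmer probe came from 1 array. Cndp1 is among the 5 strain probes, and it counted as measured through SAMR1 LSO alone. The shares of all measured probes were 14.1% and 31.8%, so these counts are near the background too.

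**Figure D1:**
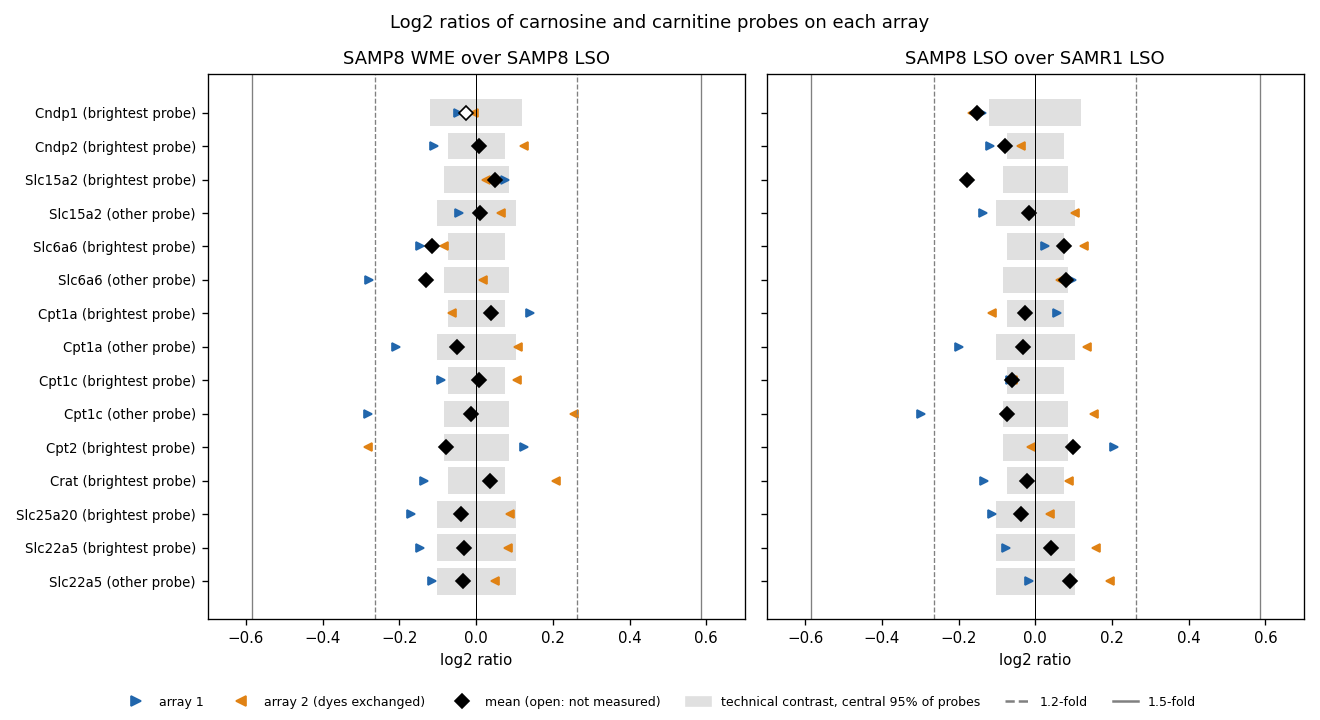
Log2 ratio of each probe (rows) on each array for the diets (left, WME over LSO) and the strains (right, SAMP8 over SAMR1). Triangles are single arrays, diamonds their mean, grey bars the central 95% of the technical contrast, and dashed and solid lines 1.2-fold and 1.5-fold; the arrays of a pair lie on opposite sides of 0 for most probes, and all means lie between −0.18 and 0.098.

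The peptidases that split carnosine are described first. Cndp1 encodes carnosine dipeptidase 1, a secreted enzyme in humans that in mouse is known chiefly from kidney. Its probe was at the edge of detection. In the diet pair its log2 normalized intensity was 6.63 and 6.57 in SAMP8 WME, well above background on 1 of 2 arrays, against 6.68 and 6.58 in SAMP8 LSO, well above background on 0 of 2. It was not measured there, and the sign of its ratio changed with the background correction, so no direction is given.

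Between the strains the Cndp1 probe had 6.58 and 6.76 in SAMP8 LSO, well above background on 1 of 2 arrays, against 6.71 and 6.93 in SAMR1 LSO, well above background on both. SAMP8 was lower on each array, although the values of the RNAs overlap across arrays. The probe counted as measured through SAMR1 LSO alone, the side where it was higher. With both RNAs required well above background it dropped out, leaving 14 probes. The mean log2 ratio was −0.15 ± 0.019 (SD, 2 arrays), against 0.12 for the 95th percentile of the technical contrast in its bin. Its size rests on how dim signal is corrected: it was −0.78 with the scanner software's processed signals (−1.15 and −0.42 on the arrays) and −0.37 without the offset. It was called at 1.5-fold in neither, but it passed 1.2-fold on both arrays in each, so that 1 of 15 probes passed 1.2-fold between the strains there. The share of all measured probes passing 1.2-fold in these settings was not computed. At 1.5-fold, 922 and 697 of 34020 measured probes were called there, against 487, so the count is not read as a result about these genes.

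Cndp2 encodes the cytosolic nonspecific dipeptidase, present in most tissues, and is the neighbour of Cndp1 in the genome. Its log2 intensity was 11.44 and 11.59 in SAMP8 WME, against 11.55 and 11.46 in SAMP8 LSO. These overlap, and the ratio was 0.0078 ± 0.17. Between the strains it was 11.45 and 11.50 in SAMP8 LSO, against 11.57 and 11.54 in SAMR1 LSO. SAMP8 was lower on both arrays without overlap, by a log2 ratio of −0.078 ± 0.056, just beyond the 0.075 of the technical contrast in its bin. Here and below, a lack of overlap describes these values only, and its share over all probes was not computed.

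Slc15a2 encodes PEPT2, a proton-coupled carrier of di- and tripeptides that takes up carnosine and is known in brain from choroid plexus and astrocytes, and also from kidney. Between the strains its brightest probe had log2 intensities of 11.15 and 11.06 in SAMP8 LSO, against 11.32 and 11.24 in SAMR1 LSO. The groups did not overlap. The ratio was −0.17 on one array and −0.18 on the other, with a mean of −0.18 ± 0.0052, and 12.0% of all measured probes stood further from 0. The other probe of the gene gave −0.14 and 0.10 on the arrays, with a mean of −0.016 ± 0.17, so the probes disagreed.

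Between the diets the brightest Slc15a2 probe had 11.13 and 11.17 in SAMP8 WME, against 11.06 and 11.14 in SAMP8 LSO. WME was higher on both arrays, by a log2 ratio of 0.050 ± 0.035, inside the 0.085 of the technical contrast in its bin. With median centring it was 0.21, in a bin whose median was then 0.13. The other probe gave 0.010 ± 0.079. Choroid plexus markers had a median log2 ratio of 0.058 for WME over LSO and of −0.17 for SAMP8 over SAMR1 (9 genes measured of 9). Their summed signal was 17211 to 18218 in SAMP8 WME, against 16498 to 17072 in SAMP8 LSO. In the strain pair it was 16710 to 17237 in SAMP8 LSO, against 19300 to 19588 in SAMR1 LSO. Their part in the Slc15a2 ratios was not tested.

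Slc6a6 encodes TauT, the sodium-dependent carrier of taurine and of beta-alanine, a building block of carnosine. Between the diets its brightest probe had log2 intensities of 12.63 and 12.58 in SAMP8 WME, against 12.77 and 12.67 in SAMP8 LSO. WME was lower on both arrays and the groups did not overlap. The mean ratio was −0.12 ± 0.044, a 1.08-fold difference, and 7.57% of all measured probes stood further from 0. The other probe had 9.26 and 9.55 in SAMP8 WME, against 9.54 and 9.53 in SAMP8 LSO. Its mean ratio of −0.13 ± 0.21 came from 1 array, since the arrays gave −0.28 and 0.018.

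The sign for the brightest Slc6a6 probe depends on the scaling. With each array centred on its median in place of loess, the ratio was 0.072, in a bin whose median was then 0.20. Relative to that bin it was −0.12. Between the strains both probes were slightly higher in SAMP8. The brightest had 12.71 and 12.73 in SAMP8 LSO, against 12.68 and 12.60 in SAMR1 LSO, and a ratio of 0.076 ± 0.073, or 0.0031 with median centring. The other probe had 9.48 and 9.50 in SAMP8 LSO, against 9.38 and 9.43 in SAMR1 LSO, and a ratio of 0.081 ± 0.023. Astrocyte markers had medians of −0.11 for WME over LSO and 0.097 for SAMP8 over SAMR1 (10 genes measured of 10). Their summed signal was 258370 to 340507 in SAMP8 WME, against 309347 to 341331 in SAMP8 LSO, and in the strain pair 276565 to 343185 in SAMP8 LSO, against 254067 to 332842 in SAMR1 LSO. Their part in the Slc6a6 ratios was not tested.

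**Figure D2:**
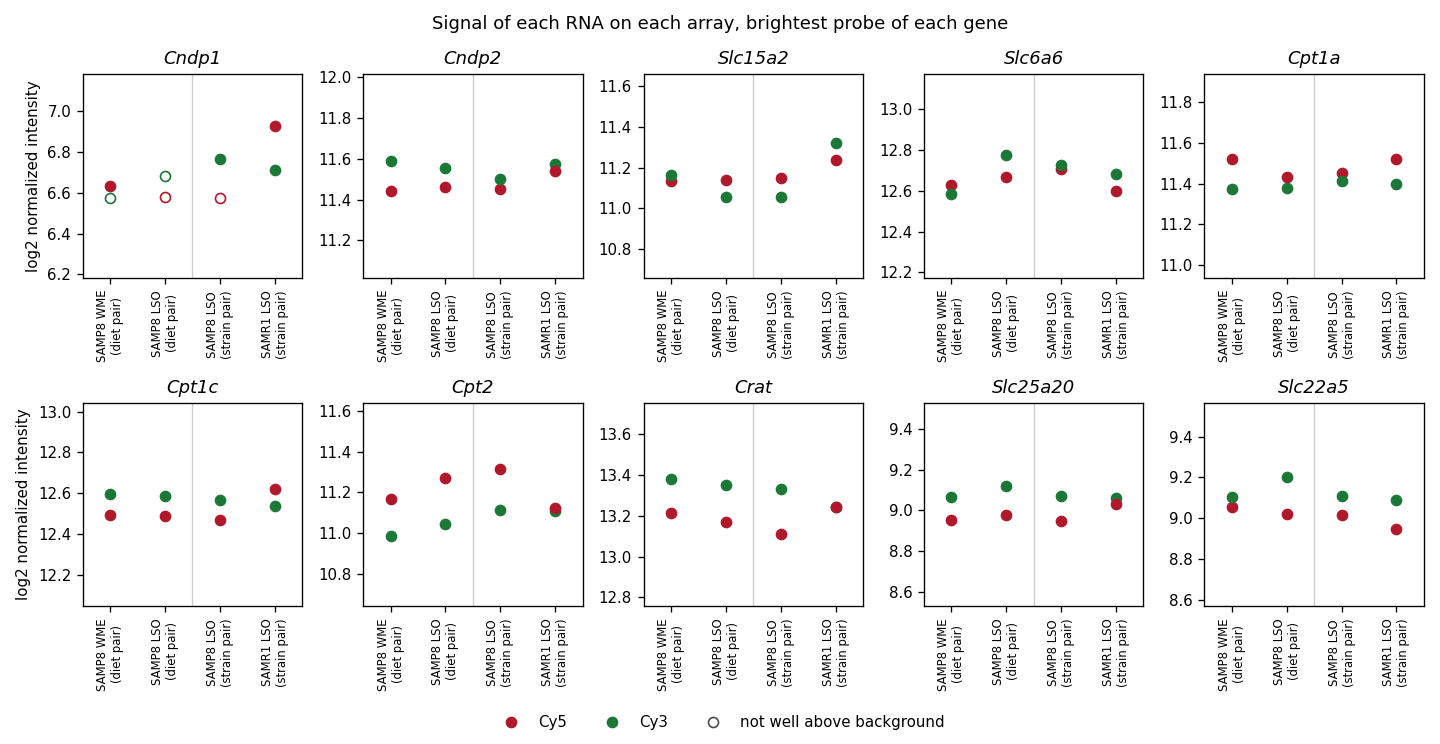
Log2 normalized intensity (y axes, each spanning 1 log2 unit) of the brightest probe of each gene in each RNA on each array, SAMP8 WME left of SAMP8 LSO for the diets and SAMP8 LSO left of SAMR1 LSO for the strains. Each point is 1 channel of 1 array coloured by dye, and open points were not well above background. The dye part was larger than the RNA part, so that the arrays differed in sign, for 7 of 9 measured genes between the diets and 5 of 10 between the strains. The points of Cndp2, Slc15a2 and Slc6a6 do not overlap between the strains, but those of the other Slc15a2 probe do. The share of all probes without overlap was not computed.

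Carnitine enters cells through OCTN2, the product of Slc22a5. Its brightest probe had log2 intensities of 9.06 and 9.10 in SAMP8 WME, against 9.20 and 9.02 in SAMP8 LSO, a ratio of −0.032 ± 0.16. Between the strains it had 9.01 and 9.11 in SAMP8 LSO, against 9.09 and 8.95 in SAMR1 LSO, a ratio of 0.041 ± 0.17. The RNAs overlap in both. The other probe gave −0.033 ± 0.12 and 0.091 ± 0.15. In the genome Slc22a5 lies between Irf1, an interferon-regulated transcription factor with ratios of −0.064 ± 0.16 and 0.19 ± 0.064, and Slc22a21, a carnitine transporter of the same family with −0.14 ± 0.17 and 0.16 ± 0.15.

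CPT1 places the acyl group on carnitine at the outer mitochondrial membrane. Cpt1a encodes the form of liver and most other tissues. Its brightest probe had 10 spots on each array, which bound the error within an array. Its log2 intensity was 11.52 and 11.37 in SAMP8 WME, against 11.38 and 11.43 in SAMP8 LSO. The array ratios were 0.14 (SD over 10 spots 0.039) and −0.062 (SD over 10 spots 0.048), so each array repeated its own ratio far more closely than the arrays repeated each other. The mean was 0.039 ± 0.14.

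Between the strains Cpt1a had 11.45 and 11.41 in SAMP8 LSO, against 11.40 and 11.52 in SAMR1 LSO. The array ratios were 0.056 (SD over 10 spots 0.038) and −0.11 (SD over 9 spots 0.051), and the mean was −0.028 ± 0.12. Both means lie inside the 0.075 of the technical contrast in that bin. The other probe of Cpt1a gave −0.049 ± 0.22 and −0.031 ± 0.24.

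Cpt1c encodes the neuronal form, which resides in the endoplasmic reticulum and has little transferase activity. Its brightest probe had 12.49 and 12.60 in SAMP8 WME, against 12.59 and 12.49 in SAMP8 LSO, a ratio of 0.0071 ± 0.14. Between the strains it had 12.47 and 12.56 in SAMP8 LSO, against 12.54 and 12.62 in SAMR1 LSO. SAMP8 was lower on both arrays, by a ratio of −0.062 ± 0.0059, although the RNAs overlap across arrays and the mean lies inside the technical contrast of its bin. The other probe had the widest spread of the 15, −0.013 ± 0.38 and −0.073 ± 0.32, with dye parts of −0.27 and −0.23 (log2 red over green).

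Slc25a20 encodes the carnitine-acylcarnitine translocase of the inner membrane. It had log2 intensities of 8.95 and 9.07 in SAMP8 WME, against 9.12 and 8.98 in SAMP8 LSO, a ratio of −0.040 ± 0.18. Between the strains it had 8.95 and 9.07 in SAMP8 LSO, against 9.06 and 9.03 in SAMR1 LSO, a ratio of −0.037 ± 0.11. The RNAs overlap in both comparisons.

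Cpt2 encodes the transferase on the inner side of that membrane. It had 11.17 and 10.99 in SAMP8 WME, against 11.04 and 11.27 in SAMP8 LSO, a ratio of −0.079 ± 0.29 with opposite signs on the arrays. Between the strains it had 11.31 and 11.11 in SAMP8 LSO, against 11.11 and 11.12 in SAMR1 LSO. The ratio of 0.098 ± 0.15 came from 1 array, with 0.21 and −0.011, and passed the 0.085 of the technical contrast in its bin. Crat encodes carnitine acetyltransferase, which buffers acetyl groups. It had 13.21 and 13.38 in SAMP8 WME, against 13.35 and 13.17 in SAMP8 LSO, a ratio of 0.036 ± 0.24, and 13.11 and 13.33 in SAMP8 LSO, against 13.24 and 13.24 in SAMR1 LSO, a ratio of −0.023 ± 0.16.

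The wider pathways were read from lists in which each gene is represented by its brightest probe. None of the 7 lists held a gene called at 1.5-fold in either comparison, against 0.109% of 14684 measured genes between the diets and 1.48% of 14776 between the strains. At 1.2-fold 0 genes were called between the diets and 2 between the strains, both higher in SAMP8, against 0.409% and 4.65% of all measured genes (3.26% higher in SAMP8). The 2 were 1 of 7 measured genes of peptide and histidine transport and 1 of 9 of taurine synthesis and transport. The other lists, with 6 to 18 genes measured between the strains, held none, so the 2 calls are not read as a result about these lists.

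Carnosine synthesis and breakdown (7 genes measured between the diets, 8 between the strains) had medians of 0.028 for WME over LSO and −0.069 for SAMP8 over SAMR1. Carns1, the carnosine synthase, was not analysed here. Dpyd, which starts the breakdown of pyrimidines to beta-alanine, had ratios of 0.088 ± 0.060 and 0.30 ± 0.063. Hdc, which makes histamine from histidine, had −0.13 ± 0.056 between the diets, and Upb1, the last enzyme on the way to beta-alanine, had −0.17 ± 0.073 between the strains.

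Peptide and histidine transport (7 genes measured of 8) had medians of 0.096 and −0.036. Slc15a3, a lysosomal carrier of histidine and peptides known from macrophages, passed 1.2-fold between the strains with 0.33 ± 0.025. Slc15a4, a lysosomal carrier of the same family, had 0.14 ± 0.12 between the diets, and Slc36a1, a lysosomal amino acid carrier, 0.12 ± 0.084. Taurine synthesis and transport (9 genes) had medians of −0.067 and 0.010. Slc6a13, the GABA and taurine carrier GAT2 known from meninges and liver, passed 1.2-fold between the strains with 0.44 ± 0.18, and had −0.22 ± 0.14 between the diets. Its other probe had means of 0.46 between the strains and −0.23 between the diets. Slc6a12, the betaine carrier, had −0.15 ± 0.025 and 0.18 ± 0.023. Endothelial and mural markers had medians of −0.094 and 0.43 (10 genes), with 4 called higher in SAMP8, against 1.05% of all measured genes. Their summed signal was 22700 to 23616 in SAMP8 WME, against 24472 to 27200 in SAMP8 LSO, and in the strain pair 25122 to 27608 in SAMP8 LSO, against 18699 to 19516 in SAMR1 LSO. Their part in these ratios was not tested.

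Carnitine synthesis and transport (10 genes) had medians of −0.036 and 0.012, with Slc22a4, a relative of OCTN2, at −0.16 ± 0.21 and Slc16a9 at −0.15 ± 0.22 between the diets. Aldh9a1, an enzyme of carnitine synthesis, had −0.15 ± 0.14 between the strains, while its other probe stood on the opposite side of 0, at 0.090. The carnitine acyltransferases (6 genes) had medians of 0.030 and −0.025. Cpt1b, the muscle form of CPT1, had 0.23 ± 0.35 between the strains, from 1 array, and its other probe had a mean of 0.23. Mitochondrial beta-oxidation (18 genes) had medians of −0.0094 and 0.016. Acadvl, the very long-chain acyl-CoA dehydrogenase, had −0.15 ± 0.087 and 0.18 ± 0.11, Decr1 had 0.092 ± 0.12 between the diets, and Acadm, the medium-chain dehydrogenase, had −0.18 ± 0.21 between the strains. Genes that control CPT1 and PPAR targets (16 of 17 measured) had medians of 0.0080 and −0.0042. Angptl4, a PPAR target, had −0.15 ± 0.24 and 0.30 ± 0.17, Ucp3 had −0.14 ± 0.19 between the diets, and Pdk4 had −0.18 ± 0.032 between the strains.

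**Figure D3:**
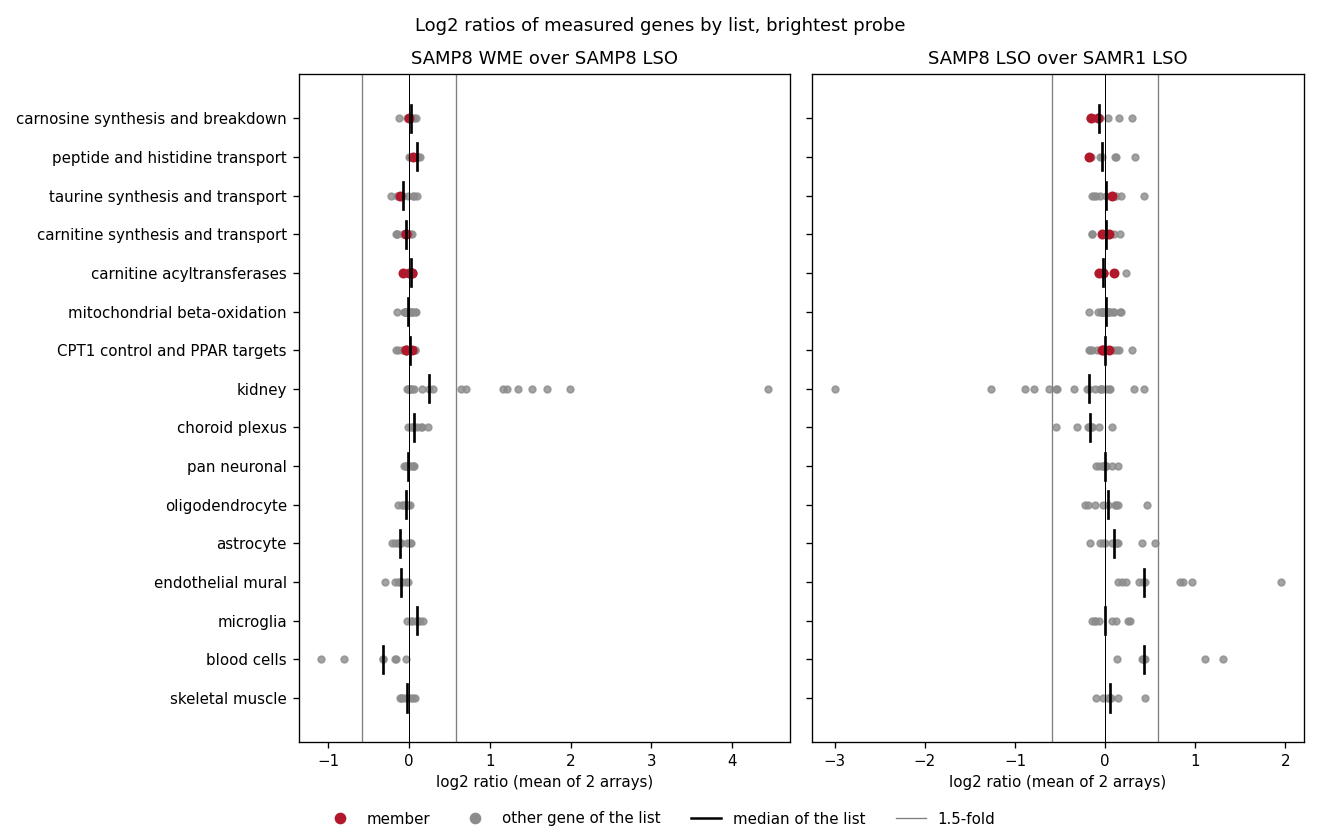
Log2 ratio (x axis, mean of 2 arrays) of each measured gene in each list (rows) for the diets (left) and the strains (right). Red points are the 10 genes, grey points other genes of the list, black ticks list medians and grey lines 1.5-fold; in the pathway lists no gene passes 1.5-fold on both arrays, while kidney transcripts reach past it.

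The labelled tissue was checked with pan-neuronal markers, of which 10 of 10 were well above background in every RNA. Their medians were −0.014 and −0.0058. Kidney transcripts were called in both comparisons: 7 of 21 measured were higher in SAMP8 WME than in SAMP8 LSO (median 0.25), against 0.0681% of all measured genes, and 4 of 19 were lower in SAMP8 LSO than in SAMR1 LSO (median −0.17), against 0.426%. Their summed signal was 13279 to 14197 in SAMP8 WME, against 7488 to 7992 in SAMP8 LSO. In the strain pair it was 7530 to 8167 in SAMP8 LSO, against 8763 to 9475 in SAMR1 LSO. Aqp1 stands in this list and in that of the choroid plexus. Cndp1 and Slc15a2 are known from mouse kidney. The part of kidney transcripts in their ratios, and in those of the other genes named here, was not tested. Oligodendrocyte markers had medians of −0.032 and 0.035, microglia 0.096 and 0.0043, skeletal muscle −0.029 and 0.050, and blood cells −0.32 and 0.43. Of the 7 blood genes measured, 2 were called lower in WME, against 0.0409% of all measured genes. Between the strains 2 were called higher in SAMP8, against 1.05%.

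**Figure D4:**
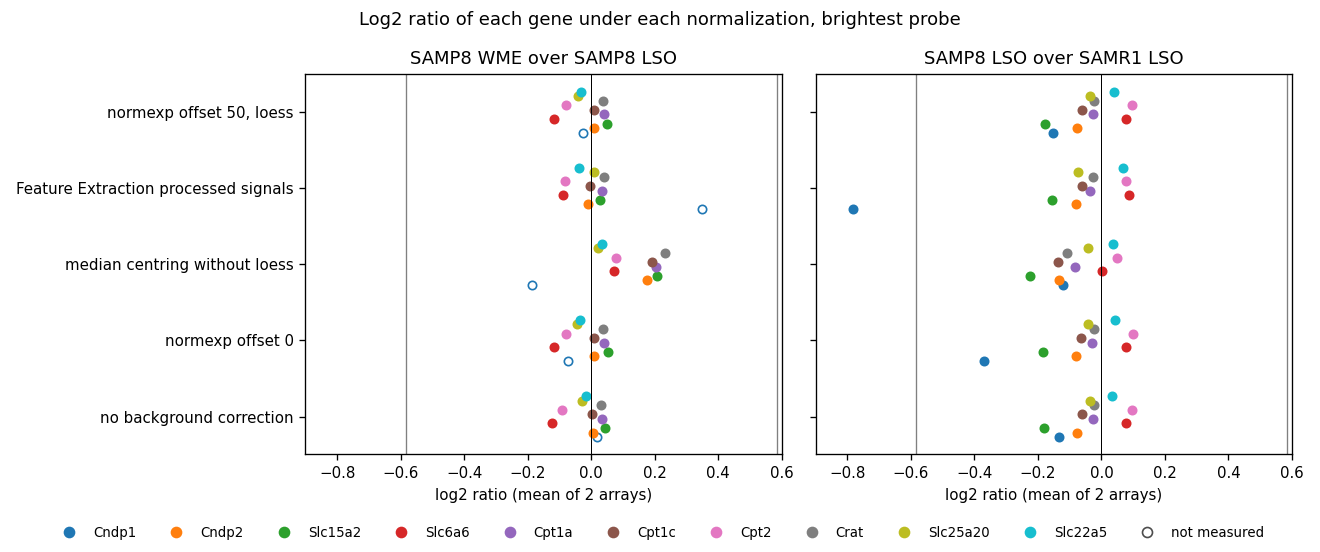
Log2 ratio (x axis, mean of 2 arrays) of the brightest probe of each gene under each normalization (rows) for the diets (left) and the strains (right). Open points were not measured; Slc15a2 stays between −0.16 and −0.23 between the strains, Cndp1 runs from −0.12 to −0.78 there, and median centring shifts bright probes upward between the diets.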

How the data were processed

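The scanner files hold spot intensities that the authors deposited, and the submitters' processing notes name Agilent Feature Extraction 11.0.1.1 as the software. The deposited series table holds log2 ratios of red over green, equal to those of the processed signals in the scanner files, with column medians of −0.018 to 0.017. The LogRatio column of the scanner files, log10 of red over green per the file headers, was used only to check direction. Median signals and local backgrounds were corrected with normexp (offset 50) and normalized by loess within each array in limma 3.58.1 under R 4.3.3. Control spots had weight 0, and 105 to 123 outlier spots per array were left out. Spots of a probe were averaged, and each ratio was turned for dye. Of 41174 probes, 23374 were named through accessions matched to the RefSeq gene table and 17800 were not. Between 81.4% and 85.6% of spots were well above background and 0 were saturated. The turned arrays of a pair correlated over probes at −0.293 for the diets and 0.572 for the strains.

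The dye-swapped arrays of a pair were averaged as 1 replicate, and the number of arrays limits the precision. All 4 arrays shared 1 slide, so no comparison between slides could be made. The text names all 10 genes and, of each other list, up to 4 genes called at 1.5-fold or, where none was called, the 2 with the ratio furthest from 0; for marker lists only counts, medians and, for some, summed signals are given, beside Aqp1, named because lists share it. None of the 10 genes was called, so no genes of like pattern are named. Members and lists were chosen with earlier results of these data known. Steps were tested on simulated data. Alternatives were the processed signals, median centring, offset 0, no background correction, outliers kept, other filters on dim probes, single arrays and a 2-fold threshold.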

Additional observations from a re-analysis of the deposited data

How the results depend on the processing

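No probe of the 10 genes was called at 1.5-fold under any alternative tried, in either comparison. At 1.2-fold on both arrays Cndp1 passed between the strains with the processed signals and with offset 0, and no other probe of the 10 genes passed in either comparison under the normalizations tried. The share of all measured probes passing 1.2-fold under those 2 settings was not computed. The count over all probes was less steady. Between the diets 27 probes were called (19 higher, 8 lower), against 124 with the processed signals (79 higher, 45 lower), 46 without background correction (37 higher, 9 lower), 9 at 2-fold, and 85 (19 higher, 66 lower) to 117 (94 higher, 23 lower) on single arrays. Between the strains 487 were called, against 922 with the processed signals (560 higher, 362 lower) and 173 at 2-fold. Median centring moved the median of all measured probes to 0.063 between the diets and −0.020 between the strains, and the bin medians between the diets ran from −0.11 in the dimmest to 0.20 in the brightest. Under it 5 of the 14 diet probes changed sign and 11 lay above 0, while 3 changed sign with the processed signals and 1 without background correction. No strain ratio of the 15 probes changed sign under these settings, offset 0 or with outliers kept. The share of all measured probes that changed sign was not computed, so these counts are not read as a trait of the 10 genes. The cause of the changes was not tested. No paired analysis was possible because each group is 1 RNA and the replicate numbers only name the dye orientations. Of the 10 genes only Cndp1 was limited by its signal over background.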
